A study of Mus musculus with 17 samples.

Results

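The genes examined here are the nuclear genes of oxidative phosphorylation in the mouse, read through the accessibility of their promoters in neurons of the nucleus accumbens. Members were all autosomal protein-coding genes of the GENCODE annotation of mm10 whose symbol starts with Nduf, Uqcr, Cox4, Cox5, Cox6, Cox7, Cox8, Atp5 or Sdh followed by a letter or digit. The rule found 95 members under 94 symbols among 20807 autosomal protein-coding genes, because the annotation holds a second gene record named Atp5o, called Atp5o-long here. By symbol, 36 members belonged to complex I, 4 to complex II, 8 to complex III, 17 to complex IV and 18 to complex V, and 12 were assembly factors.

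The respiratory chain lies in the inner mitochondrial membrane. Complexes I and II take electrons from NADH and succinate, complex III passes them on to cytochrome c, complex IV hands them to oxygen, and complex V uses the resulting proton gradient to make ATP. Most subunits are encoded in the nucleus, so their promoters can be read by ATAC-seq, an assay that tags accessible DNA with the Tn5 transposase. Neurons spend much of this ATP on ion pumping and synaptic transmission.

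The study asked whether the chromatin response of accumbal neurons to acute cocaine depends on sex and on the estrous cycle. Neuronal nuclei, positive for the nuclear protein NeuN, were sorted from mice labelled C57BL/6 (C57BL/6J in the study's methods) of 52 to 54 days, and each library pooled 3 animals. Females in diestrus and females in proestrus each gave 3 control and 3 cocaine libraries, and males gave 3 control but only 2 cocaine libraries. Cocaine was given once by intraperitoneal injection at 10 mg/kg and animals were killed 1 h later, whereas the controls received no cocaine. The controls served as the baseline, and the study's methods state no vehicle injection for them. Injection, handling and the 1 h interval thus cannot be told apart from cocaine. Diestrus is the stage of low estrogen and proestrus the stage of high estrogen. Libraries keep the numbers of their titles, so the proestrus cocaine libraries are 1, 2 and 4. All groups are pools of wild-type animals, and no single animal can be read from them.

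The deposited peak lists held 75458 to 157005 peaks per library, fewest in the male cocaine libraries (75458 and 87707). A promoter was called when a peak lay within 1 kb of the 5′ end of the gene, and its fold enrichment and width were those of the peak nearest to the 5′ end. Fold enrichment is the peak caller's ratio of signal at the summit over the local background. In these lists, 86 to 90 of the 95 members were called per library, against 55.3% to 60.5% of all genes. All 4 neuronal markers (such as Rbfox3, which encodes NeuN) and all 6 markers of medium spiny neurons (such as Drd1 and Drd2) were called in all 17 libraries. Of the 12 glial and endothelial markers, 7 were called in no library, 3 of them those of endothelium. The oligodendrocyte marker Mbp was called in 17 libraries, the astrocyte marker Gfap in 16, the microglial marker P2ry12 in 4, and Mog and Mag in 1 each. A peak lay at the Xist promoter in each of the 12 libraries from females and in 0 of the 5 from males.

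One library stood apart from its group, and results that rest on it are given with and without it. Over the 85 members called everywhere, the mean absolute difference in centred log2 fold enrichment between libraries of the same group ran from 0.130 to 0.210 in the 14 pairs without diestrus cocaine library 1. That library lay 0.343 and 0.414 from the other diestrus cocaine libraries but 0.137 to 0.163 from the 3 diestrus controls. The libraries also differed in how accessibility followed GC content. The median centred log2 fold enrichment of tested promoters in the top quartile of GC content exceeded that of the bottom quartile by 0.260 to 0.489 in diestrus controls, 0.366 to 0.453 in proestrus controls, 0.235 to 0.279 in proestrus cocaine, 0.0825 to 0.241 in male controls and 0.30 to 0.322 in male cocaine libraries. In diestrus cocaine this excess was 0.406 in library 1, 0.267 in library 2 and 0.130 in library 3. Its part in the results below was not tested beyond the fits centred within bins of GC content.

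Members were called far more often than the background. Of the 95 members, 85 (89.5%) were called in all 17 libraries, where 52.6% of all genes were, and 4 (4.21%) were called in none, where 34.7% of all genes were. Outside complex IV, 75 of 78 members were called in all libraries and 0 in none. Complex IV, cytochrome c oxidase, stood at 10 of 17, and all 4 members without any call belonged to it.

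The uncalled members were tissue-restricted isoforms. Several subunits of cytochrome c oxidase exist as a ubiquitous form and a form known from heart, skeletal muscle, lung or testis. Among the 8 such isoforms listed for this work, 1 was called in all 17 libraries and 4 in none, against 84 and 0 of the other 87 members. Their windows were also poorer in CpG dinucleotides, with a median ratio of observed to expected CpG of 0.309 against 0.610. The promoters of Cox6a1 and Cox6a2 and of Cox8a and Cox8b are shown because they set the ubiquitous form, called in every library, beside the muscle form, called in none. Each sequence reads 5′ to 3′ along the gene's strand and ends just before the 5′ end, cut back where an exon of another transcript begins, and capitals mark matches on either strand to GCGCATGCG (NRF1), GGGGCGG (SP1) and CCAAT (NF-Y), 3 of the 8 motifs searched.
Cox6a1 upstream (GRCm38/mm10, chr5:115348982-115349129, minus strand): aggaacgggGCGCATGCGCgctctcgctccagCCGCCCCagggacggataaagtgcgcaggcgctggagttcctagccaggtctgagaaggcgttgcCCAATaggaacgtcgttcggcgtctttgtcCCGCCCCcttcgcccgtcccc
Cox6a2 upstream (GRCm38/mm10, chr7:128206388-128206637, minus strand): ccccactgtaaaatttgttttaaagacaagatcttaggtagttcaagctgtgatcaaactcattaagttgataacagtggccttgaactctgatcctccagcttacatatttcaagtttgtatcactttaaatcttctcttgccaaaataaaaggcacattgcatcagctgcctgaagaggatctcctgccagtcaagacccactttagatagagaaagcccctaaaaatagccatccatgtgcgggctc
Cox8a upstream (GRCm38/mm10, chr19:7217617-7217866, minus strand): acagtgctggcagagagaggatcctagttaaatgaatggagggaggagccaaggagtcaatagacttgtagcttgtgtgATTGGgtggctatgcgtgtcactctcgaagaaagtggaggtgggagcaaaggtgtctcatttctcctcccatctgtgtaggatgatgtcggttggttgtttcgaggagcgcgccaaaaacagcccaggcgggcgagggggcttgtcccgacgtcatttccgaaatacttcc
Cox8b upstream (GRCm38/mm10, chr7:140900447-140900696, minus strand): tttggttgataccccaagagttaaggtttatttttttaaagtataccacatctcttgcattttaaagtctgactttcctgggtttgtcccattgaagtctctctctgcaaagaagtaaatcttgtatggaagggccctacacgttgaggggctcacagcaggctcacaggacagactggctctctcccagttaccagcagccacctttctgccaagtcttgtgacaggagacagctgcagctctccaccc

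Cox6a1, the ubiquitous form of subunit VIa, had a median fold enrichment of 17.2 over 17 libraries, and Cox6a2, the heart and muscle form, had no peak within 1 kb in any. Cox8a had a median of 22.7, while Cox8b, the muscle form, and Cox8c, the testis form, had no peak. The Cox6a1 stretch held overlapping NRF1 matches on both strands and 2 SP1 matches, and those of Cox6a2 and Cox8b held none of the 8 motifs. The longer window searched at the 5′ end, described below, held an NF-Y match for Cox6a2 and no match for Cox8b.

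Other isoforms lay between these extremes. Cox4i1, the ubiquitous form of subunit IV, had a median of 22.2, whereas Cox4i2, the lung form, was called in diestrus control library 1 only, at 2.71 and 954 bp from the 5′ end. Cox7a1, the heart and muscle form of subunit VIIa, was called in 15 libraries with a median of 3.23, its values running from 2.62 in proestrus cocaine library 4 to 5.34 in diestrus cocaine library 1, and its ubiquitous partner Cox7a2 had a median of 13.5. Cox6b2, the testis form, was called in 11 libraries at a median of 3.01, and Cox6b1 in 17 at 9.28. Cox7b2, a testis form, was called in none. Each restricted form called in some but not all libraries had a lower fold enrichment than its ubiquitous partner. Ndufa4l2, a hypoxia-induced relative of Ndufa4, was the exception with 17 calls, and its peaks are described below.

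**Figure D1:**
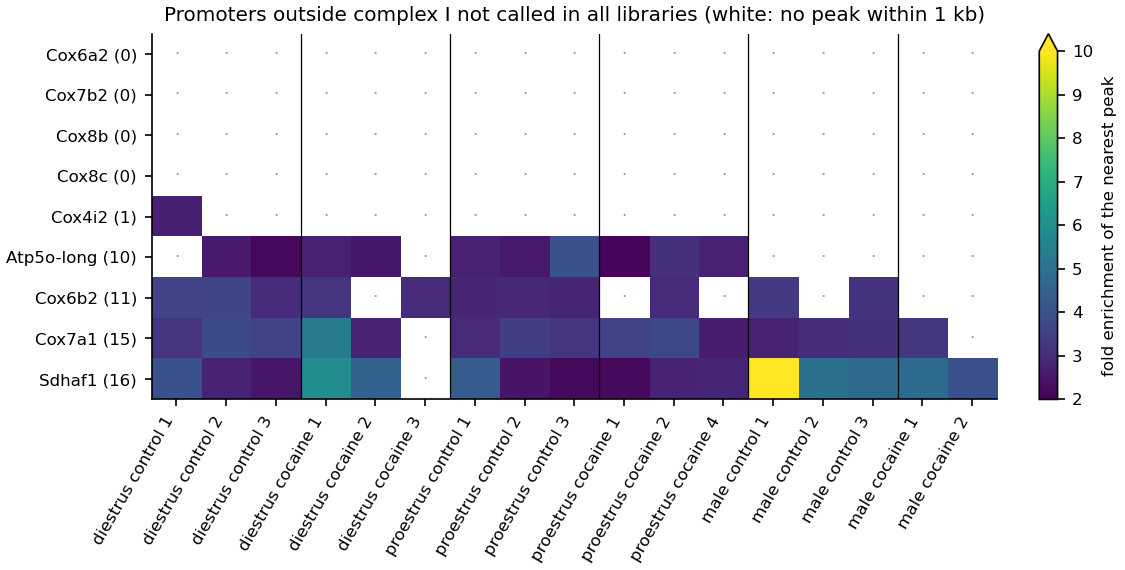
The 9 members outside complex I that lacked a call in at least 1 library (rows, number of calls in parentheses) are shown across the 17 libraries (columns), coloured by the fold enrichment of the nearest peak, with colour ending at 10 and white where no peak lay within 1 kb. All values shown lie under 6 apart from Sdhaf1 in male control library 1 (24.5), and Atp5o-long is white in all 5 male libraries.

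Sdhaf1 and Atp5o-long, outside complex IV, also lacked calls. Sdhaf1, an assembly factor of complex II, was called in 16 libraries, at 2.18 to 5.94 in 15 of them and at 24.5 in male control library 1. The nearest peak was 2243 bp wide in that library and 217 to 969 bp wide in the others. It covered the 5′ end in only 5 libraries, and its summit moved over a span of 2426 bp. The value of 24.5 thus need not be of the same peak as the others. Atp5o-long was called in 10 of the 12 female libraries, at 2.10 to 3.98, and in 0 of the 3 male control and 0 of the 2 male cocaine libraries. A peak covered its 5′ end in only 1 library, and the nearest peak lay a median of 322.5 bp away. How many of all genes had the same pattern of calls was not counted. The pattern was picked out after its values were seen, so no test is given. The main Atp5o record, which encodes the stalk subunit OSCP, had calls in 17 libraries and a median of 14.2.

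Where they were open, members sat slightly above the typical promoter. The median fold enrichment of the 85 members called everywhere was 14.1, against 13.3 for the 10950 promoters called in all libraries, whose interquartile range ran from 8.49 to 20.9. Of these 85, 23 (27.1%) fell in the top quartile of all promoters and 9 (10.6%) in the bottom quartile. By class the medians were 19.6 for complex V, 16.3 for assembly factors, 15.9 for complex II, 14.1 for complex I, 13.8 for complex IV and 12 for complex III. The classes overlapped widely, since complex I alone ran from 6.09 to 42.8 and complex V from 7.37 to 40.9.

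**Figure D2:**
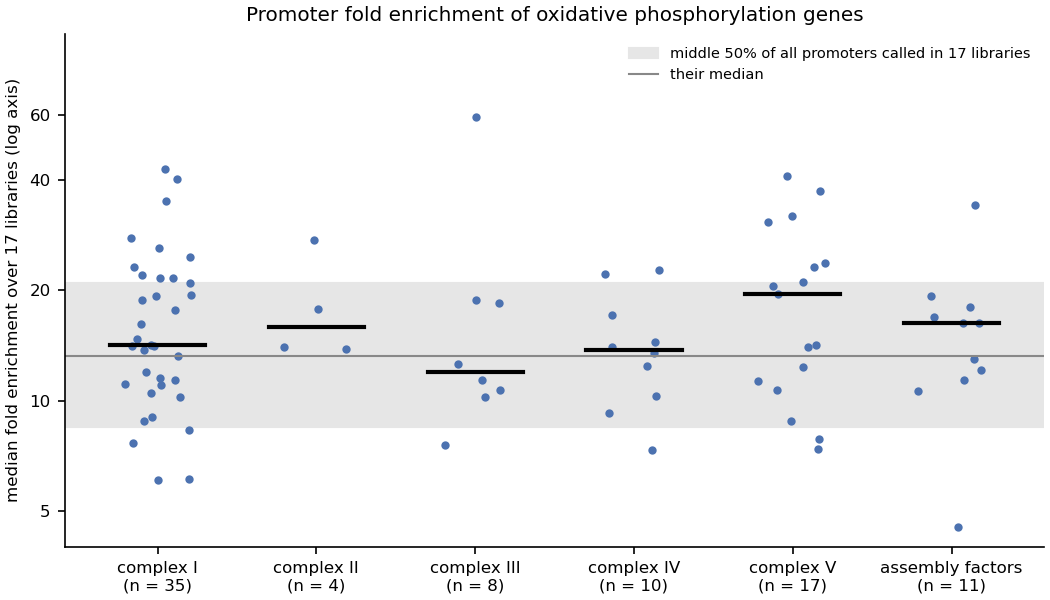
Each point is the median fold enrichment over 17 libraries (log axis) of 1 member called in all of them, by class, with black bars at class medians. The grey band spans the interquartile range of all 10950 promoters (8.49 to 20.9) and the grey line their median (13.3), and Uqcrq at 59.2 and Ndufaf1 at 4.53 are the extremes.

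The most accessible member was Uqcrq, a small subunit of complex III, at a median of 59.2, above 99.7% of promoters called everywhere. Its lowest value was 38.2 in diestrus cocaine library 3 and its highest 82.4 in diestrus control library 2. Ndufa11, an accessory subunit of complex I, followed at 42.8 and Atp5b, which encodes the catalytic beta subunit of the ATP synthase, at 40.9. Atp5b ranged from 28.9 in diestrus cocaine library 3 to 58.5 in diestrus cocaine library 1. The ranges of Atp5b and Uqcrq over libraries overlapped, but Uqcrq had the higher value in each of the 17 libraries. At the other end stood Ndufaf1, an assembly factor of complex I, at 4.53 (3.56 to 6.92), Ndufc2 at 6.09 and Ndufb8 at 6.12. The members at or next to the class medians were Ndufc1 (14.1) in complex I, Sdhc (14) and Sdha (17.7) in complex II, Uqcr10 (11.4) and Uqcr11 (12.6) in complex III, Cox7a2 (13.5) and Cox5a (14) in complex IV, Atp5c1 (19.6) in complex V and Ndufaf7 (16.3) among assembly factors.

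The peaks of most members were centred close to the start of transcription. Of 85, 69 (81.2%) had a median summit within 200 bp of the annotated 5′ end, as did 77.2% of all promoters called everywhere. The median peak was 1592 bp wide against 1517 bp for all, and 73 members (85.9%) had a median width of at least 1 kb, against 77.1%. The narrowest was that of Ndufaf1 at 530 bp and the widest that of Atp5d at 17219 bp, which also covered the starts of Cbarp and Midn. The peaks of 35 members (41.2%) covered the annotated start of at least 1 other protein-coding gene, and in these the accessibility of the promoters cannot be told apart.

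Head-to-head arrangements were frequent. A protein-coding gene on the opposite strand started within 1 kb of 33 of the 85 members (38.8%), against 19.5% of all promoters called everywhere. This held for 3 of 4 members of complex II, 4 of 8 of complex III, 14 of 35 of complex I, 6 of 17 of complex V, 5 of 11 assembly factors and 1 of 10 of complex IV. Sdhd, a membrane anchor of complex II, started 98 bp from Timm8b, which encodes a chaperone of mitochondrial import. Ndufa7 started 10 bp from the ribosomal protein gene Rps28. Ndufs6 and Ndufb5 overlapped the mitochondrial ribosomal protein genes Mrpl36 and Mrpl47 at their 5′ ends, with signed distances of −29 and −615 bp. Atp5j, a subunit of the ATP synthase stalk, overlapped (−700 bp) the 5′ end of Gabpa, which encodes the DNA-binding subunit of NRF-2, an ETS-type activator of respiratory genes, and both fell under the same peak (median 23.2).

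Sequence windows were compared next, since NRF1, NRF-2 (GABP), YY1, SP1 and ERR alpha are known regulators of respiratory-chain promoters. The windows were 300 bases long, from 250 before the 5′ end to 50 from it on, or 150 on either side of the median summit. Both strands were searched for exact matches to GCGCATGCG (NRF1), CCGGAAG (ETS), AAGATGGCG (YY1), GGGGCGG (SP1), TCAAGGTCA (ERR), CCAAT (NF-Y), TGACGTCA (CRE) and TGAGTCA (AP-1). A match is a description of letters and does not show that a factor was bound.

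The YY1 and NRF1 letters were more frequent among members than among all promoters. Around the summit, 12 of 85 members (14.1%) held the YY1 motif, against 4.08% of all promoters called everywhere, and 10 (11.8%) held the NRF1 motif, against 4.51%. In the window at the 5′ end these shares were 4.71% against 3.00% for YY1 and 8.24% against 3.91% for NRF1. The ETS motif stood at 24.7% against 21.3% around the summit and CRE at 7.06% against 4.31%. SP1 was less frequent among members in both windows, at 38.8% against 49.3% around the summit and 31.8% against 43.1% at the 5′ end. NF-Y stood at 29.4% against 39.7% around the summit and at 37.6% against 39.5% at the 5′ end. ERR was found in 2 members (2.35%) at the 5′ end against 0.301% of all, and AP-1 in 2 (2.35%) against 2.87%, while around the summit they stood at 1.18% against 0.155% and 3.53% against 2.58%.

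At 8 of the 12 YY1 sites of members (66.7%) the ATG inside the motif was an annotated start codon of the gene, which was true of 40.7% of such sites over all promoters. The 7 of these sites printed here show that the shared letters lie at the start of translation. Capitals mark the motif, and each sequence reads along the strand named. Matches of NRF1 follow for 5 of the members in which it lay within 150 bp of the 5′ end. Those of Ndufa8 (63 bp) and Uqcr11 (8 bp), on the opposite strand, are not printed, and that of Cox6a1 is shown above.
Atp5j2 YY1 match (GRCm38/mm10, chr5:145191500-145191528, minus strand): ccaggacttcAAGATGGCGtcactcggtg
Ndufa6 YY1 match (GRCm38/mm10, chr15:82354213-82354241, minus strand): cttcctcggcAAGATGGCGgccgcggcca
Ndufa9 YY1 match (GRCm38/mm10, chr6:126849097-126849125, minus strand): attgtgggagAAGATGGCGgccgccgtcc
Ndufc1 YY1 match (GRCm38/mm10, chr3:51408915-51408943, minus strand): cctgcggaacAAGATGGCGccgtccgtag
Ndufs4 YY1 match (GRCm38/mm10, chr13:114388041-114388069, minus strand): tgcctacaggAAGATGGCGgcggtctcaa
Ndufs6 YY1 match (GRCm38/mm10, chr13:73328431-73328459, minus strand): ggtcaccggcAAGATGGCGgcggtgctga
Uqcrc1 YY1 match (GRCm38/mm10, chr9:108936706-108936734, plus strand): cggaagttagAAGATGGCGgcgtccgcag
Atp5k NRF1 match (GRCm38/mm10, chr5:108434431-108434459, minus strand): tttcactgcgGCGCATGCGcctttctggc
Cox6c NRF1 match (GRCm38/mm10, chr15:35938170-35938198, minus strand): atcgactcttGCGCATGCGtgctgctgga
Ndufaf4 NRF1 match (GRCm38/mm10, chr4:24897960-24897988, plus strand): ccagatgtctGCGCATGCGcctgtgcgga
Ndufaf5 NRF1 match (GRCm38/mm10, chr2:140170652-140170680, plus strand): agtcccgttgGCGCATGCGcctaatagaa
Uqcrc1 NRF1 match (GRCm38/mm10, chr9:108936668-108936696, plus strand): actccgctctGCGCATGCGcagcgcggct

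Uqcrc1, a core subunit of complex III, held both motifs downstream of its start, NRF1 at 49 bp and YY1 at 87 bp. The stretches upstream of the most accessible members differed from these and from each other. Atp5b held 5 NF-Y and 2 SP1 matches in 250 bases, whereas the stretch of Uqcrq, cut at 191 bases, held none of the 8 motifs. The longer window at the 5′ end of Uqcrq held an ETS match, and the window around its summit an SP1 match.
Uqcrq upstream (GRCm38/mm10, chr11:53430832-53431022, minus strand): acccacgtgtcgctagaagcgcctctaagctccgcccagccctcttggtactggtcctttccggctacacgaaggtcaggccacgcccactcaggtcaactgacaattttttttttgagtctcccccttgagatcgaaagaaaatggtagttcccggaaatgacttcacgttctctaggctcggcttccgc
Atp5b upstream (GRCm38/mm10, chr10:128083023-128083272, plus strand): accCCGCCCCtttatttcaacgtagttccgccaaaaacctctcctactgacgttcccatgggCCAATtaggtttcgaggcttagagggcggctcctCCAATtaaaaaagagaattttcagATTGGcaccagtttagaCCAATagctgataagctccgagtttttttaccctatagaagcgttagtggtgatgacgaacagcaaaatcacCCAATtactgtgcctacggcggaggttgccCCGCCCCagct

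The effect of cocaine was examined first in diestrus. Fold enrichment was compared on the log2 scale after each library was centred on the median of the 10950 promoters, with limma over all of them and Benjamini-Hochberg adjustment. No member passed an adjusted p of 0.05 (0 of 85), where 0.0731% of all promoters did. Before adjustment, 28 of 85 (32.9%) had p under 0.05, against 26.1% of all. The smallest p belonged to Uqcrq, at 59.4, 82.4 and 77.4 in controls and 76.5, 63.0 and 38.2 in cocaine libraries 1, 2 and 3. The groups overlapped on this deposited scale but not after centring, where the difference was −0.48 log2 (SE 0.135, adjusted p = 0.140 by limma).

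This count depended on library 1 and on the groups in the fit. A fit over all 17 libraries, library 1 included, gave 20 members, 7 higher and 13 lower. The share of all promoters in that fit is not given, so the count describes only how the calls moved. Library 1 had been singled out from these same members, because it lay near the controls, so the values without it are conditional on that choice and are given as a description. Without diestrus cocaine library 1, 45 of 85 members passed, 22 of them higher and 23 lower after cocaine, where 37.0% of all promoters passed, 16.6% higher and 20.4% lower. The lone pair of cocaine libraries then carried the comparison against 3 controls. Members that were higher after cocaine in this fit were led by Ndufs4 (0.79, SE 0.165), Ndufaf5 (0.79, SE 0.140), Ndufs1 (0.73, SE 0.150), Ndufa9 (0.72, SE 0.165) and Ndufaf2 (0.69, SE 0.121), all of complex I or its assembly. Those lower were led, apart from Ndufa4l2, by Atp5d (−0.86, SE 0.181), Cox6b1 (−0.79, SE 0.145), Ndufv1 (−0.76, SE 0.108), Atp5mpl (−0.70, SE 0.170) and Cox8a (−0.68, SE 0.102). These names were chosen after their values were seen. By class, 6 assembly factors were higher and 2 lower, complex I split into 9 and 10, complex V into 5 and 6, and complex IV into 0 and 3. The windows of the higher members had a median GC content of 49.8% and those of the lower members 51.6%. Centring within bins of GC content left 44 members past the threshold, 19 higher and 25 lower, again without the share of all promoters.

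The values of Ndufs1 show the split. This gene, on the minus strand of chromosome 1 (GRCm38/mm10, 63143596 to 63176833), encodes the large iron-sulfur subunit of complex I. Its promoter had fold enrichments of 14.2, 12.5 and 14.9 in the diestrus controls, 17.7 in cocaine library 1, and 27.5 and 19.98 in cocaine libraries 2 and 3. On this deposited scale library 1 lay between the controls and the other cocaine libraries. After centring it stood at 0.10 log2, within the range of the controls (0.24, −0.215 and 0.24). Cocaine libraries 2 and 3 stood at 0.77 and 0.86.

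In proestrus, Ndufs1 was the single member past the threshold. It rose from 13.7, 13.2 and 17.3 in controls to 23.5, 24.9 and 20.3 after cocaine, with no overlap, a centred difference of 0.61 log2 (SE 0.102, adjusted p = 0.0344 by limma). This was 1 of 85 members, against 1.89% of all promoters, and 28 of 85 (32.9%) had an unadjusted p under 0.05, against 25.9%. The Ndufs1 peak also covered the start of Eef1b2, which encodes a translation elongation factor and overlaps Ndufs1 (−8 bp). Its call was lost without centring (adjusted p = 0.227), in the fit over all 17 libraries (0.204) and with the replicate number as a block (0.0785), where the difference was 0.64, 0.61 and 0.67. It was also lost when proestrus control library 1, 2 or 3 or proestrus cocaine library 1 or 4 was left out, with differences from 0.52 to 0.68. Without proestrus cocaine library 2, 7 members passed.

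The diestrus and proestrus comparisons share no library, so their signs can be set side by side. Library 1 was left out with these values in view, which bears on the diestrus side. Of the 45 members past the threshold in diestrus without library 1, 42 (93.3%) had the same sign in proestrus, as had 94.1% of all promoters past it. Over all 85 members, with or without a call, the share was 80.0%, against 79.2% of all promoters. These shares lay close to the background. The exceptions among the 45 were Cox6b1, Atp5mpl and Ndufa11, at −0.79, −0.70 and −0.40 in diestrus and at 0.02, 0.10 and 0.01 in proestrus.

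**Figure D3:**
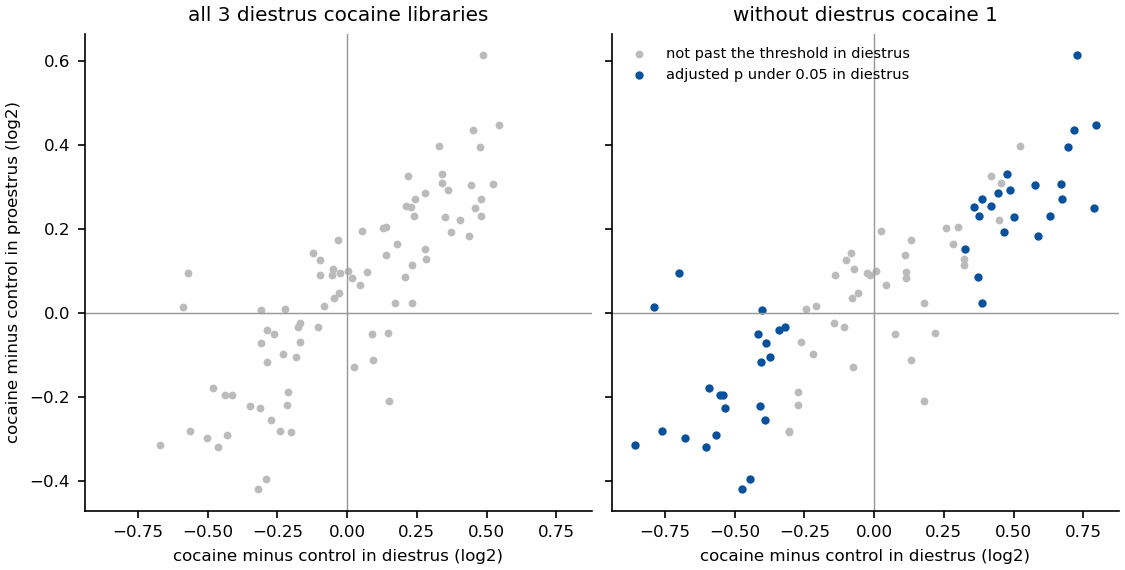
Centred log2 differences between cocaine and control are plotted for 84 members (Ndufa4l2, beyond the axes, is left out) in diestrus (x axis) against proestrus (y axis), with all 3 diestrus cocaine libraries on the left and without library 1 on the right. Dark points passed an adjusted p of 0.05 in diestrus, 0 on the left and 44 of those shown on the right, most of them in the lower left or upper right quadrant.

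In males, no member passed the threshold (0 of 85), where 0.986% of all promoters did, and 24 (28.2%) had an unadjusted p under 0.05, against 23.6%. The smallest p was that of Sdhaf3, an assembly factor of complex II. Its fold enrichment was 26.8, 26 and 24.1 in controls and 16.3 and 13 after cocaine, without overlap, and the centred difference was −0.53 log2 (SE 0.103, adjusted p = 0.0596 by limma). Without centring, 20 members passed, all of them lower, while the median difference of all promoters was then −0.29 log2. The share of all promoters that then passed is not given. Leaving out male control library 1 gave 6 members, male control library 2 gave 1 and male cocaine library 1 gave 2.

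Peak width and calls were compared for the same groups. By width, 0 of 85 members passed in any of the 3 comparisons of cocaine with control by limma, against 0.0548% of all promoters in diestrus, 0.676% in proestrus and 0.283% in males. Unadjusted p was under 0.05 for 13 (15.3%), 18 (21.2%) and 13 (15.3%) members, against 13.5%, 18.98% and 11.97% of all promoters. In diestrus and in proestrus, 0 of 95 members were called in every library of one group and none of the other, against 0.226% and 0.481% of all genes. In males this held for 1 member, against 1.93%. The male cocaine libraries had the fewest peaks, and the part of peak number in this count was not tested.

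The controls of both female stages were compared next. No member passed between diestrus and proestrus controls (0 of 85 by limma, against 0.0731% of all promoters), and 15 (17.6%) had an unadjusted p under 0.05, against 21.1%. The smallest p was that of Ndufs8, an iron-sulfur subunit of complex I, at 31.2, 33.3 and 30.2 in diestrus and 21.9, 23 and 24.5 in proestrus. These did not overlap, with a centred difference of 0.37 log2 (SE 0.0764, adjusted p = 0.0648).

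Male and female controls differed at more promoters. Against diestrus controls, 21 of 85 members (24.7%) passed, where 18% of all promoters did. Of these, 7 were higher in males, against 7.98% of all promoters, and 14 were lower, against 10.0%. Against proestrus controls, 9 members (10.6%) passed, where 15.4% of all promoters did, 5 higher, against 9.41%, and 4 lower, against 6.02%. Both comparisons share the male controls.

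Sdhaf3, Cox7c and Cox7a2 were higher in males in both comparisons. Sdhaf3 stood at 26.8, 26 and 24.1 in male controls, 15, 14.6 and 11.9 in diestrus and 14.4, 13 and 13.5 in proestrus controls. The male values lay above every female control, by 0.65 log2 (SE 0.117, adjusted p = 0.0180) and 0.59 log2 (SE 0.106, adjusted p = 0.0134) in limma. Cox7c, a small ubiquitous subunit of complex IV, was at 19.4, 19.3 and 18.8 in males and 10.1 to 11.5 in the 6 female controls, a difference of 0.60 (SE 0.126) from diestrus and 0.57 (SE 0.10) from proestrus. Cox7a2 was at 22.9, 22.6 and 19.9 in males and at 10.1 to 13.4 in female controls, a difference of 0.50 (SE 0.114) and 0.57 (SE 0.0937). All members of this trio had male and female ranges that did not meet. Ndufa4, now counted with complex IV by biochemists although its symbol places it in complex I here, was higher only against diestrus (0.61, SE 0.147), and Ndufb5 and the methyltransferase gene Ndufaf7 only against proestrus (0.38, SE 0.0808 and 0.46, SE 0.0982). Whether those differences differ between stages was not tested.

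Lower in males in both comparisons were Atp5d, Ndufaf3 and Ndufa4l2. Atp5d, the delta subunit of the ATP synthase, differed by −0.60 (SE 0.136) from diestrus and −0.52 (SE 0.115) from proestrus, in a peak whose summit moved over a span of 20621 bp between libraries. Against diestrus alone the most negative differences beside these were those of Ndufv1, the NADH-binding subunit of complex I (−0.62, SE 0.112), Cox6b1 (−0.61, SE 0.148) and Ndufs8 (−0.56, SE 0.114). Sdhb, the iron-sulfur subunit of complex II, was at 29.8, 25.2 and 27.3 in males and 29.2, 33.8 and 33.1 in diestrus controls. These ranges overlapped on the deposited scale but not after centring, where the difference was −0.46 (SE 0.0810, adjusted p = 0.0167 by limma). Cox5a, a subunit of complex IV, was lower only against proestrus (−0.47, SE 0.0994).

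Centring bore on the direction of these calls. Male controls had the higher medians, so without centring 25 members were higher and 1 lower against diestrus and 39 higher and 1 lower against proestrus, while the median difference of all promoters moved to 0.23 and 0.36 log2. The windows of members lower in males had a median GC content of 52.4% against diestrus and 57.5% against proestrus, and those of members higher in males 48.6% in both. Centring within bins of GC content left 20 members (6 higher, 14 lower) and 11 members (6 higher, 5 lower). Against diestrus, leaving out diestrus control library 2 or 3 or male control library 2 or 3 left 1, 1, 1 and 2 members. Against proestrus, 3 members passed without proestrus control library 2, 2 each without proestrus control library 3 and male control library 3, and 14 without male control library 1.

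Whether the effect of cocaine differed between males and females was tested over all 17 libraries, with the mean of the diestrus and proestrus effects as the female effect. For 18 of 85 members (21.2%) it did, where 20.5% of all promoters passed. In 10 of these the male effect was the more positive, against 9.69% of all promoters, and in 8 the more negative, against 10.8%. These members were selected by the difference between the male and female effects, so the order of their groups given below is a description.

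The largest negative differences were those of Ndufs4 (−1.28, SE 0.286), Ndufs1 (−1.02, SE 0.264), Ndufa4 (−0.83, SE 0.235), Sdhaf3 (−0.81, SE 0.175) and Atp5f1 (−0.64, SE 0.152), with limma adjusted p from 0.0177 to 0.0296. Ndufs4, an accessory subunit of complex I known from Leigh-like disease models, was at 6.20, 6.25 and 6.64 in diestrus controls and 8.31, 12.2 and 10.5 after cocaine. In proestrus it was at 7.07, 7.77 and 7.20 and then at 9.61, 12.1 and 9.22, so that in both stages every cocaine value lay above every control on the deposited scale, although after centring diestrus cocaine library 1 lay among the controls. In males the order turned, with 9.56, 14 and 10.9 in controls and 7.0 and 4.18 after cocaine. Atp5f1, which encodes subunit b of the ATP synthase, was at 30.6, 34.2 and 30.7 in male controls and 22.2 and 19.99 after cocaine. In females it was at 19.5 to 23.4 in the 6 controls and 23.8 to 35.7 in the 6 cocaine libraries. After centring, diestrus cocaine library 1 (0.72) lay just above the diestrus controls (up to 0.70). It lay below proestrus control libraries 1 and 2 (0.83 and 0.89).

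The largest positive differences beside Ndufa4l2 were those of Ndufv1 (0.76, SE 0.184), Cox8a (0.66, SE 0.20), Cox6b1 (0.66, SE 0.22) and Ndufs8 (0.65, SE 0.183), with limma adjusted p from 0.0212 to 0.0456. Ndufv1 was at 21.9, 26.8 and 25.8 in diestrus controls and 27.9, 19.1 and 11.7 in diestrus cocaine libraries 1, 2 and 3, at 17, 19.3 and 20.4 and then 15.9, 19 and 13.1 in proestrus, and at 19.8, 16.1 and 21.7 and then 22.0 and 17.7 in males. On the deposited scale its groups overlapped in diestrus, in proestrus and in males. After the centring used in the test they did not overlap in any of these, cocaine lying lower in both female stages and higher in males. Cox8a was at 25, 30.0 and 29.8 in diestrus controls and 32.2, 21.8 and 14.9 after cocaine, and at 28.3, 19.3 and 28.0 in male controls and 24 and 24.6 after cocaine, again with overlap on this scale. After centring its diestrus groups did not overlap, whereas its male groups did. The differences of the remaining members, Sdhb, Ndufaf8, Uqcr11, Ndufv3, Cox6a1, Cox7a2, Ndufa5 and Cox7c, lay between −0.63 and 0.58.

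**Figure D4:**
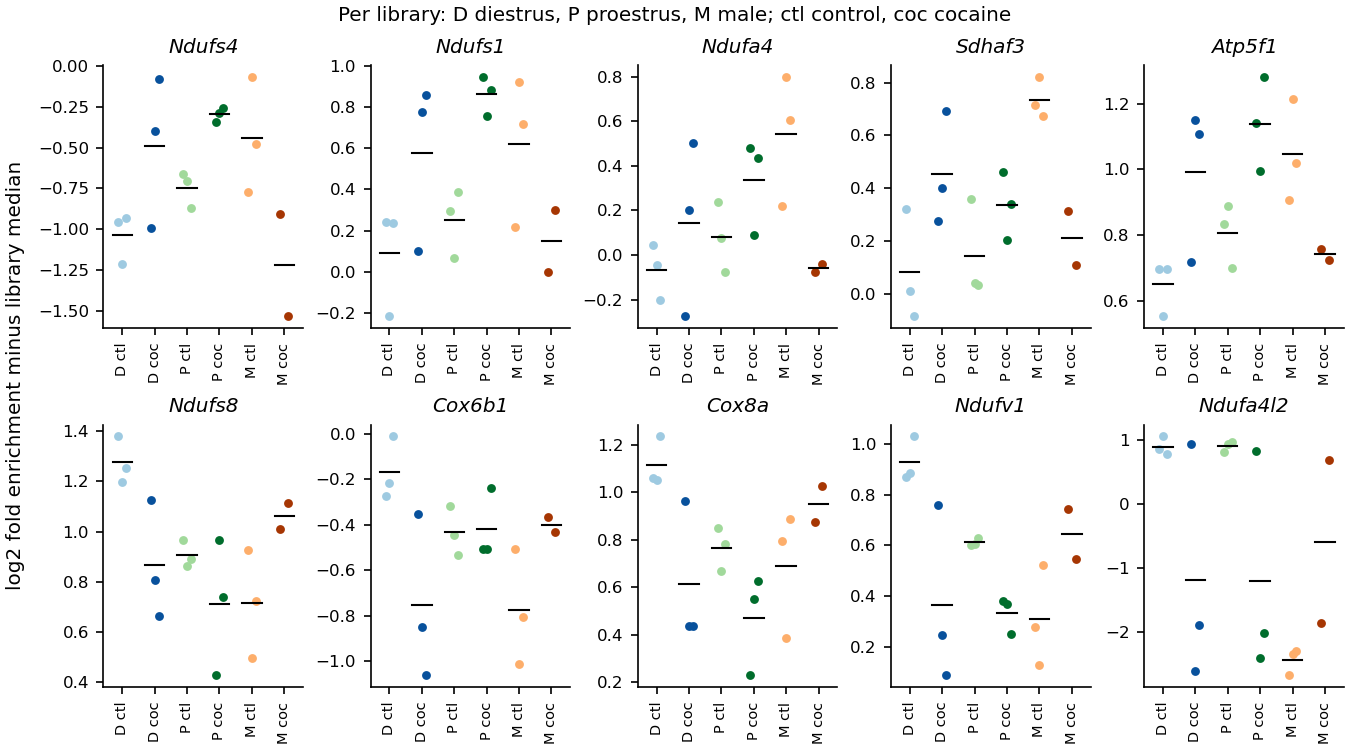
Centred log2 fold enrichment (y axis, scales differ between panels) is plotted for each library of the 6 groups, with black bars at group means, for the 5 members with the most negative and the 5 with the most positive difference between the male and female effects of cocaine. In the upper row cocaine means lie above controls in both female stages and below them in males. Diestrus cocaine library 1 (leftmost point of its group) lies near the diestrus controls in most panels, and Ndufa4l2 falls into 2 levels.

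This comparison leaned on few libraries. No member passed when male control library 2 or either male cocaine library was left out, 0 passed in the fit of males with diestrus alone, and 15 passed in that with proestrus alone. Without diestrus cocaine library 1 the count rose to 38, and without male control library 3 it fell to 7. Leaving out diestrus control library 3, diestrus cocaine library 2 or proestrus cocaine library 1 gave 11 each. Without centring 26 passed, 1 with the more positive and 25 with the more negative male effect, the median of all promoters being −0.35 log2. Medians of the deposited log2 fold enrichment ran from 3.60 to 3.71 in male cocaine and from 3.88 to 4.03 in male control libraries.

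Ndufa4l2 had by far the largest differences, 3.95 (SE 1.10, adjusted p = 0.0286 by limma) in this comparison and −3.34 and −3.36 between male and female controls, and its peaks show what was measured. In the 3 diestrus controls, the 3 proestrus controls, diestrus cocaine library 1 and proestrus cocaine library 1, the nearest peak was a broad region of 7361 to 9430 bp with its summit between −3286 and −3184 bp from the 5′ end (negative is upstream) and fold enrichments of 19.7 to 31.8. In the 3 male controls, diestrus cocaine libraries 2 and 3 and proestrus cocaine libraries 2 and 4, the nearest peak was a separate one of 238 to 715 bp, with its summit between −216 and 111 bp and fold enrichments of 2.55 to 3.07. Male cocaine library 1 had a small peak with its summit at −1153 bp and a fold enrichment of 3.61, and male cocaine library 2 the upstream region at 19.4. The upstream region itself was called in all 17 libraries, with means of 24.6 ± 4.88 (SD, n = 3) in diestrus controls, 23 ± 9.55 in diestrus cocaine, 23.3 ± 3.22 in proestrus controls, 21.0 ± 0.709 in proestrus cocaine, 21.2 ± 1.28 in male controls and 20.9 ± 2.12 (n = 2) in male cocaine. The groups overlapped in range, except that the 3 diestrus controls (from 21.8) lay just above the 3 proestrus cocaine libraries (to 21.7). When the peak with the highest fold enrichment in the window was taken, the difference between male and female effects was −0.07 in place of 3.95, and those between male and female controls were −1.19 and −1.20. In male control library 2 and male cocaine library 1 the upstream region ended outside the window, at −1636 and −1594 bp. The highest peaks there were 4.68 and 3.61, against 21.9 and 19.8 in male control libraries 1 and 3 and 19.4 in male cocaine library 2.

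**Figure D5:**
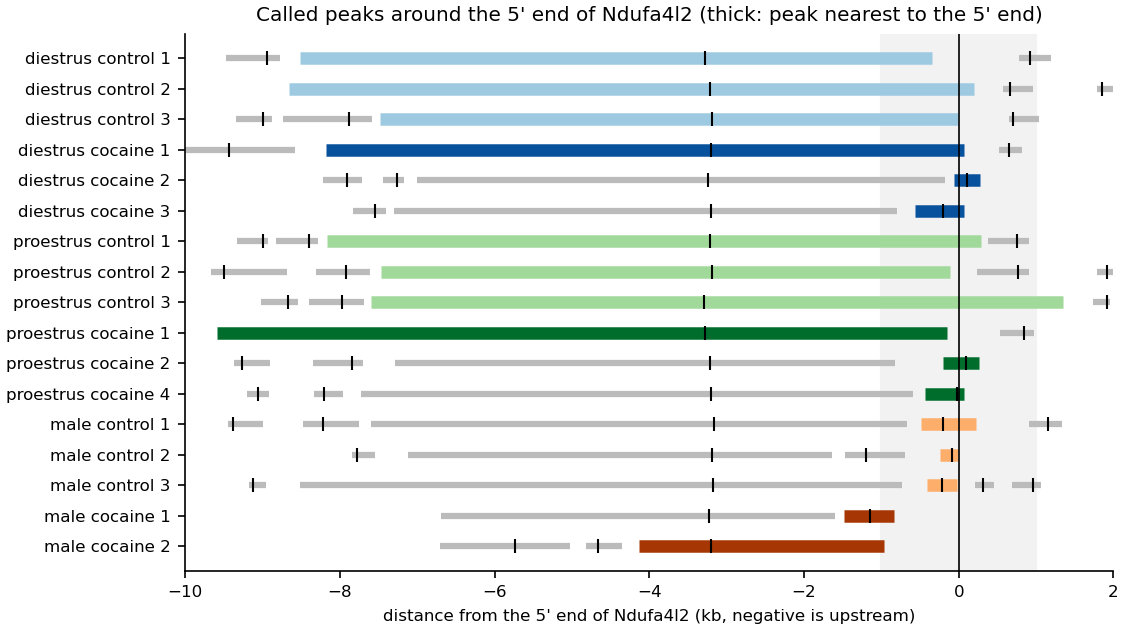
Called peaks of each library (rows) are drawn against the distance from the 5′ end of Ndufa4l2 in kb, with ticks at summits, thick coloured bars for the peak nearest to the 5′ end, thin grey bars for other peaks and shading over the window of 1 kb. The region with its median summit at −3208 bp is present in every row, and what differs is which called peak lies nearest to the 5′ end. The region covers the 5′ end in some rows, as in diestrus control library 2 (to 203 bp). In others it ends short of it, as in diestrus control library 1 (−347 bp).

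Members whose summit lay over 1 kb from the 5′ end in some library were Ndufa4l2, Atp5d, Atp5g2 and Sdhaf2. With the test limited to promoters whose summit stayed within 1 kb in all 17 libraries, 81 members were left, of which 19 passed in the comparison of the male and female effects, 22 in male against diestrus controls and 12 in male against proestrus controls. This limit kept 9967 of the 10950 promoters. The shares of them that passed are not given, so the counts are not read against the background.

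The other genes of the respiratory chain listed for this work, all outside the symbol rule, resembled the members. Of 41, 39 were called in all 17 libraries and 1, Cox19, in none, and their median fold enrichment was 16.1. Cycs, the electron carrier cytochrome c, stood at 33.9, and Esrra, which encodes ERR alpha, at 49.6. Ppargc1a, the coactivator PGC-1 alpha, was called at its annotated 5′ end in 12 libraries at a median of 3.08. None of the 39 passed for cocaine in diestrus, in proestrus or in males, or between the female controls (0 of 39 by limma in each). In male against diestrus controls 2 were higher and 4 lower, where 7.98% and 10.0% of all promoters were, among the lower Esrra (−0.56, SE 0.0950, adjusted p = 0.0153). In male against proestrus controls 3 were higher, where 9.41% of all promoters were, and 0 lower, where 6.02% were, among the higher Tfam, the mitochondrial transcription factor (0.33, SE 0.0936). For the comparison of the male and female effects of cocaine, Esrra (0.63, SE 0.198), Cox15 (0.49, SE 0.136) and Tmem126b (0.41, SE 0.0978) had the more positive male effect, as had 9.69% of all promoters, and Tmem70, an assembly factor of complex V, the more negative (−0.74, SE 0.202), as had 10.8%.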

How the data were processed

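Nuclei positive for NeuN were sorted from the nucleus accumbens and profiled by ATAC-seq in 17 libraries, each a pool of 3 animals. Per the study's methods and the submitters' processing notes, the authors trimmed adapters, aligned reads to mm10 with BWA and called peaks in each library with MACS2. The deposited peak lists give a score per peak, the fold enrichment (a ratio of summit signal over local background) and the −log10 of p and q, besides other columns for position and summit. They hold no read counts per peak, and the read numbers that the study lists per library were not used here, so no interval that needs depth is given. Whether Tn5 insertion sites were shifted was not given in the sources used here.

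Members, lists and tests were chosen with earlier results of these data known. Gene starts were those of GENCODE vM21 on GRCm38. Promoters called in all 17 libraries (10950) were compared with limma 3.58.1 in R 4.3.3 (linear model, moderated with a mean-variance trend) on the log2 fold enrichment or width of the nearest peak, with no pseudocount, each library centred on its median, and Benjamini-Hochberg adjustment at 0.05. Each fit held only the groups compared, and all 17 libraries for the difference between male and female effects. In these fits of fold enrichment, members past the threshold were named, except that only some of the 21 in male against diestrus controls were. Where none passed, the member with the smallest p was named. The scripts were tested on simulated data. Groups came from the sample titles, which for diestrus cocaine library 2 was the sole source of the stage. Replicates were separate pools, so p-values measure the spread between pools.

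The requirement of a call in every library leaves out members that were gained or lost, which were counted separately. The values of 1 such member are not reported here. Alternatives were other centrings, windows, peak choices and thresholds, fits over other groups, a replicate block and leaving out each library.

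Whether equal replicate numbers pair the libraries was checked from the correlation of their deviations from the group means, which ran from −0.352 to 0.137. The numbers were therefore not taken to pair them.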

Additional observations from a re-analysis of the deposited data

Results flagged for a closer look

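For 18 members the effect of cocaine differed between males and females by limma's test of the difference itself (adjusted p under 0.05), where 20.5% of all promoters passed. The log2 differences, male minus female effect, were −1.28 for Ndufs4, −1.02 for Ndufs1, −0.83 for Ndufa4, −0.81 for Sdhaf3, −0.64 for Atp5f1, −0.63 for Cox7c, −0.52 for Ndufa5 and −0.51 for Cox7a2. They were 0.49 for Cox6a1, 0.52 for Ndufv3, 0.54 for Uqcr11, 0.56 for Ndufaf8, 0.58 for Sdhb, 0.65 for Ndufs8, 0.66 for Cox6b1, 0.66 for Cox8a, 0.76 for Ndufv1 and 3.95 for Ndufa4l2. The value for Ndufa4l2 compares 2 different peaks. Dixon's test for outlying samples was not run, since it needs groups of at least 4.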

How the results depend on the processing

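Leaving out each library in turn gave 0 to 45 members for cocaine in diestrus, 0 to 7 in proestrus, 0 to 6 in males, 0 to 1 between female controls, 1 to 22 and 2 to 14 between male controls and those of diestrus and proestrus, and 0 to 38 for the difference between male and female effects. For width the ranges were 0 to 2, 0 to 1 and 0 to 0, and for calls 0 to 0, 0 to 1 and 1 to 2, in diestrus, proestrus and males. A fit over all 17 libraries gave 20 members in diestrus (7 higher, 13 lower) and 0 in proestrus. Without centring there were 0 members in proestrus, 20 in males, 40 between male and proestrus controls and 4 by width in males. Centring within GC bins gave 2 in proestrus. Without diestrus cocaine library 1 it gave 44 in diestrus and 35 for the difference between effects, an alternative chosen after seeing the data. Taking the peak of highest fold enrichment gave 3 in proestrus, 3 in males, 4 between female controls and 15 between male and proestrus controls. Peaks with −log10 q of at least 5, or a window of 500 bp, gave 1 in males and 2 between female controls. Requiring the summit within 1 kb in all libraries, also chosen after seeing the data, gave 2 in proestrus, 2 in males and 4 between female controls. The fit of males with diestrus alone gave 0. With peaks that cover the 5′ end, 1 member was separated by calls in proestrus and 0 in males, and 85 members were called per library at the median, against 87 with equal numbers of peaks and 89 in the lists as deposited. Of these alternatives, only the diestrus fit without cocaine library 1 has its share of all promoters given above. The other counts show how the calls moved and are not read against all promoters. The cause of these changes was not tested.

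With the replicate number as a block, 0 members passed in proestrus, 1 between male and diestrus controls and 2 for the difference between effects, although the numbers were not found to pair the libraries.

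For the members named from a test, 640 alternative values were computed. Of these 458 kept direction and side of the threshold, 167 lost the call, 14 gained it and 1 reversed, Ndufa4l2 at −0.07 with the highest peak. With 2 or 3 libraries per group, small differences may have been missed.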

Other observations

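The 3 genes that match the symbols but lie on the X chromosome, outside the autosomal rule, were called in all 17 libraries. The median fold enrichment was 14.2 for Ndufb11 and 7.09 for Ndufa1, accessory subunits of complex I, and 6.38 for Cox7b, a subunit of complex IV. These are values only, and no comparison between the sexes was made for them.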
